A study of Mus musculus with 12 samples.

Results

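The collagen gene family was described in RNA sequencing of mouse urogenital sinus, the embryonic tube that gives rise to the prostate, urethra and part of the vagina. Its members were all genes of the deposited expression table whose symbol has the form Col, a number, a and a number (Col1a1 to Col28a1), which gave 44 of 56495 genes. The rule reads the symbol alone. The table held 12 libraries in 4 groups of 3, all taken from E18.5 embryos, with a female and a male group of each genotype, wild type and mutant. The mutants carried the genotype given as Inv(Itga6-nsi)d11lac, which by its name is an inversion reaching Itga6, and the wild type groups carried no allele named in the labels. The dissection left the bladder behind. Proximal urethra stayed with the sinus, as did the vagina of females, so the female and male samples did not hold the same organs. Whether replicates came from separate embryos is not stated in the labels, so the tests below measure the spread between these libraries. In bulk tissue of this kind, fewer cells of a type and less RNA per cell cannot be told apart.

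Collagens are secreted or membrane-bound proteins built of chains wound into a triple helix, and each gene encodes 1 chain. Fibrillar collagens form the tensile fibres of connective tissue, basement membrane collagens form the sheet-like networks and anchoring structures beneath epithelia and around muscle and vessels, and cartilage collagens build the fibrils of cartilage. Transmembrane collagens stay anchored in the plasma membrane, where type XVII joins basal epithelial cells to the basement membrane at hemidesmosomes. In the urogenital sinus, an epithelial tube lies on a basement membrane within a collagen-rich mesenchyme, and exchange between the layers is known to direct budding and ductal growth. The 44 genes were sorted into fibrillar (8 genes), basement membrane (9), cartilage (7), transmembrane (4) and beaded filament (the 6 type VI genes). The rest were FACIT (6 fibril-associated collagens with interrupted helices), hexagonal network (both type VIII genes) and 2 remaining genes, Col26a1 and Col28a1. Each gene was given 1 class. The cartilage class took the fibril-forming Col2a1, Col11a1 and Col11a2 and the fibril-associated type IX genes.

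Levels are FPKM, fragments scaled to gene length and library size, divided by a factor for each library that aligns the median of shared genes. These are called scaled FPKM here. Relative sequencing depth ranged from 0.807 to 1 in wild type libraries and from 0.578 to 0.712 in mutant libraries, without overlap, so depth and genotype cannot be told apart. Of the 7 genes set as markers of the lower urogenital tract, all 7 passed the filter on low values, with sums of 61.3 to 132 scaled FPKM across the libraries. The gene of this list with the largest change, Hoxd13, a patterning gene of the terminal trunk, had values of 15.1 to 20.5 scaled FPKM among the 6 wild type libraries and of 3.15 to 6.23 in the 6 mutant libraries. The library mutant female 1 stood apart in its collagen values, and results that rest on it are given with and without it. The small RNA gene Rn7sk took 12.2 to 14.9% of the FPKM of 3 libraries (male 1 of the wild type, males 1 and 3 of the mutants), and the other 9 list it at 0.

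Summed over the 44 genes, collagen expression per library was 4571 to 4982 scaled FPKM in wild type females and 4242 to 4733 in wild type males. The sums were 3315, 6552 and 6267 in the 3 mutant females and 4839, 4276 and 6118 in the 3 mutant males, so both mutant groups spread more widely than the wild type and overlapped it. Fibrillar genes made up 68.3% ± 0.90 (SD, n = 3) of this sum in wild type females and 67.8% ± 1.2 (SD, n = 3) in wild type males. Type VI genes, whose chains form beaded filaments around cells, made up 14.03% ± 0.43 (SD, n = 3) and 13.7% ± 0.91 (SD, n = 3). Basement membrane genes followed with 7.33% ± 0.41 (SD, n = 3) in wild type females and 9.30% ± 0.23 (SD, n = 3) in wild type males. Cartilage and transmembrane genes each stayed at or below 1.01% in every wild type library.

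The 4 most abundant members by wild type mean were Col3a1, Col1a2, Col1a1 and Col6a1, which together held 65.7 to 69.0% of collagen FPKM in the wild type libraries and 58.4 to 70.5% across all 12. Col3a1, the chain of type III collagen in elastic tissues (mm39, chr1:45350698-45388866), stood at 1726, 1871 and 1819 scaled FPKM in wild type females and at 1706, 1843 and 1507 in wild type males. Its mutant values were 1048, 2363 and 2193 in females and 1571, 1410 and 1954 in males. Both mutant groups thus overlapped the wild type, with the lowest and the highest value of all 12 libraries among the mutant females. The type I chains were next. Col1a2 (mm39, chr6:4504814-4541544) lay between 556 and 684 scaled FPKM in wild type, and stood at 463, 942 and 852 in mutant females and at 593, 455 and 848 in mutant males. Col1a1 (mm39, chr11:94827050-94843868) ranged from 474 to 598 in wild type, and stood at 540, 975 and 873 in mutant females and at 559, 385 and 947 in mutant males. Col6a1 (mm39, chr10:76544626-76562002), a type VI chain, ranged from 226 to 281 in wild type, and stood at 170, 336 and 351 in mutant females and at 263, 247 and 277 in mutant males. For each of the 4 genes the mutant values lay on both sides of the wild type range.

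**Figure D1:**
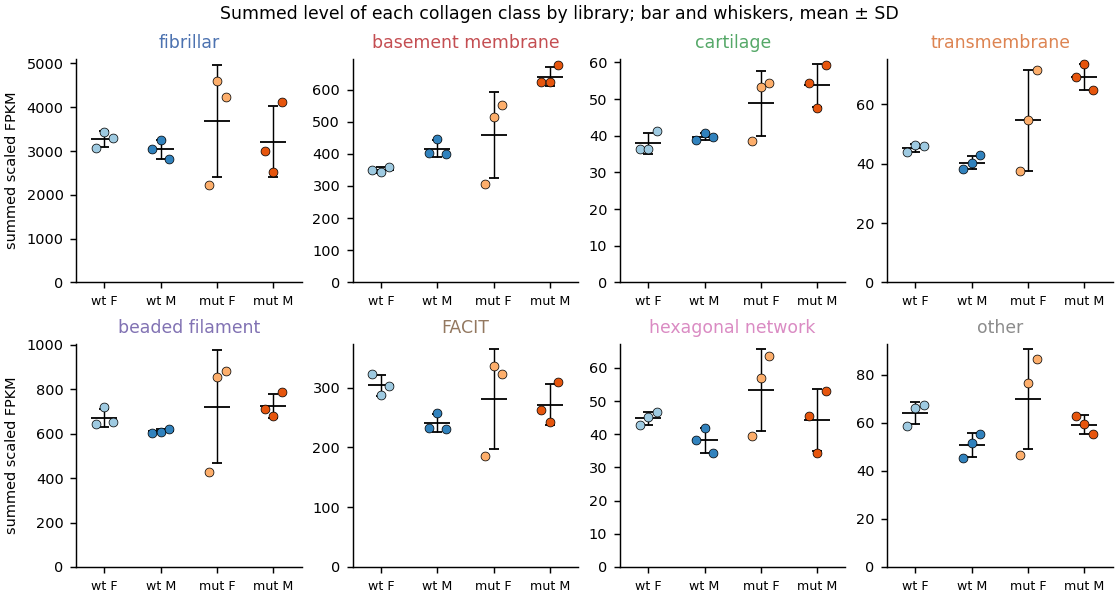
Summed scaled FPKM of each collagen class (vertical axis, from 0, with its own scale in each panel) in the wild type (wt) and mutant (mut) females (F) and males (M). Each point is a library, and the bar and whiskers are the mean ± SD of 3 libraries. The basement membrane sums of mutant males (622 to 676) lie above those of every other library, while the fibrillar sums of all groups overlap.

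At the other end, 4 members had less than 1 FPKM in all but at most 2 libraries and were not tested. These were Col10a1, the collagen of hypertrophic cartilage, Col11a2, a cartilage fibril chain, Col4a3, a chain of specialised basement membranes such as the kidney's, and the fibril-associated Col19a1. Col4a3 ranged from 0.194 to 0.755 scaled FPKM over all libraries, Col11a2 from 0.128 to 0.636 and Col19a1 from 0.365 to 1.00. Col10a1, named because of its pattern, stood at 1.70 in wild type male 2, 1.55 in mutant female 1 and 0.894 in mutant male 3, at 0.424 in mutant female 3, and at or below 0.0602 in the other 8. The other 40 members were tested.

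The mutants were compared with wild type to ask which collagens differed with the inversion, within each sex and over both. In males, 10 of the 40 tested collagens were higher in mutants and 0 were lower, at a Benjamini-Hochberg adjusted p under 0.05 in limma over all 13904 tested genes. The background in this comparison was 8.64% of all tested genes higher and 11.6% lower. In females 5 collagens were higher and 0 lower, against a background of 12.1% higher and 15.9% lower. Over both sexes 10 were higher and 1 lower, against 18.9% and 21.6%. The share of members called was 25% in males (background 20.3%), 12.5% in females (background 28%) and 27.5% over both sexes (background 40.6%), that is, near the background in males and below it in the other 2 comparisons, a difference that was not tested. By direction, higher members made up 25% in males beside 8.64% of all genes, 12.5% in females beside 12.1%, and 10 of 40 over both sexes beside 18.9%. The median log2 fold change of the 40 members over both sexes was 0.21, with 0.33 for males and 0.19 for females, beside medians of all tested genes within 0.01 of 0. Groups did not overlap for 22 of 40 members in males, beside 43.5% of all tested genes, and for 8 of 40 in females, beside 42.6%.

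The members called higher fell into 3 classes. Over both sexes, 5 of 8 tested basement membrane genes, 3 of 5 cartilage genes and 2 of 4 transmembrane genes were higher, and 0 of 8 fibrillar, 0 of 6 beaded filament, 0 of 5 FACIT and 0 of 2 hexagonal network genes were called in either direction. The 3 called cartilage genes, Col2a1, Col9a2 and Col9a3, are a fibril-forming chain and fibril-associated chains. The 0 counts for fibrillar and FACIT genes therefore hold for the classes as sorted here. Col2a1 reached 1 FPKM in too few wild type libraries to pass the filter without the mutants, so its call is no separate support for the cartilage count. The 1 member called lower was Col28a1. The class medians over both sexes were 0.49 for basement membrane, 0.37 for cartilage and 0.42 for transmembrane genes. All 3 were lower after correction for GC content and length. The cartilage median was then 0.11, the basement membrane one lay between 0.07 and 0.28, and the transmembrane one between 0.03 and 0.58. Fibrillar genes had a median of 0.14, which became -0.01 with scaling to library sums and -0.11 after correction for GC content and length. Beaded filament genes had a median of 0.10, which became -0.03 on FPKM as deposited, -0.07 with scaling to library sums and -0.17 after that correction. FACIT genes had a median of 0.20, which became -0.13 after it. The counts depended on single libraries, as did the share of all tested genes called. Without mutant female 1 25 were called over both sexes, with 19 for males and 18 for females. The shares of all tested genes called were then 46%, 28.5% and 28.9%. In males, 3 were called without wild type male 1, 4 without mutant male 1, and 6 without mutant male 2 or mutant male 3. In these 4 fits 9.02%, 8.96%, 11.9% and 17.6% of all tested genes were called in males, beside 20.3% with all libraries. Leaving out the 3 libraries that hold Rn7sk leaves 1 mutant male, so only effect sizes are given for that fit. The 10 members called higher over both sexes then had log2 fold changes of 0.31 (Col9a2) to 0.96 (Col17a1), and Col28a1 had -1.02. Each of the 10 higher calls over both sexes kept its side of the threshold when any 1 library was left out, and Col17a1, Col4a5 and Col7a1 did so under every alternative tried in which they were tested.

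**Figure D2:**
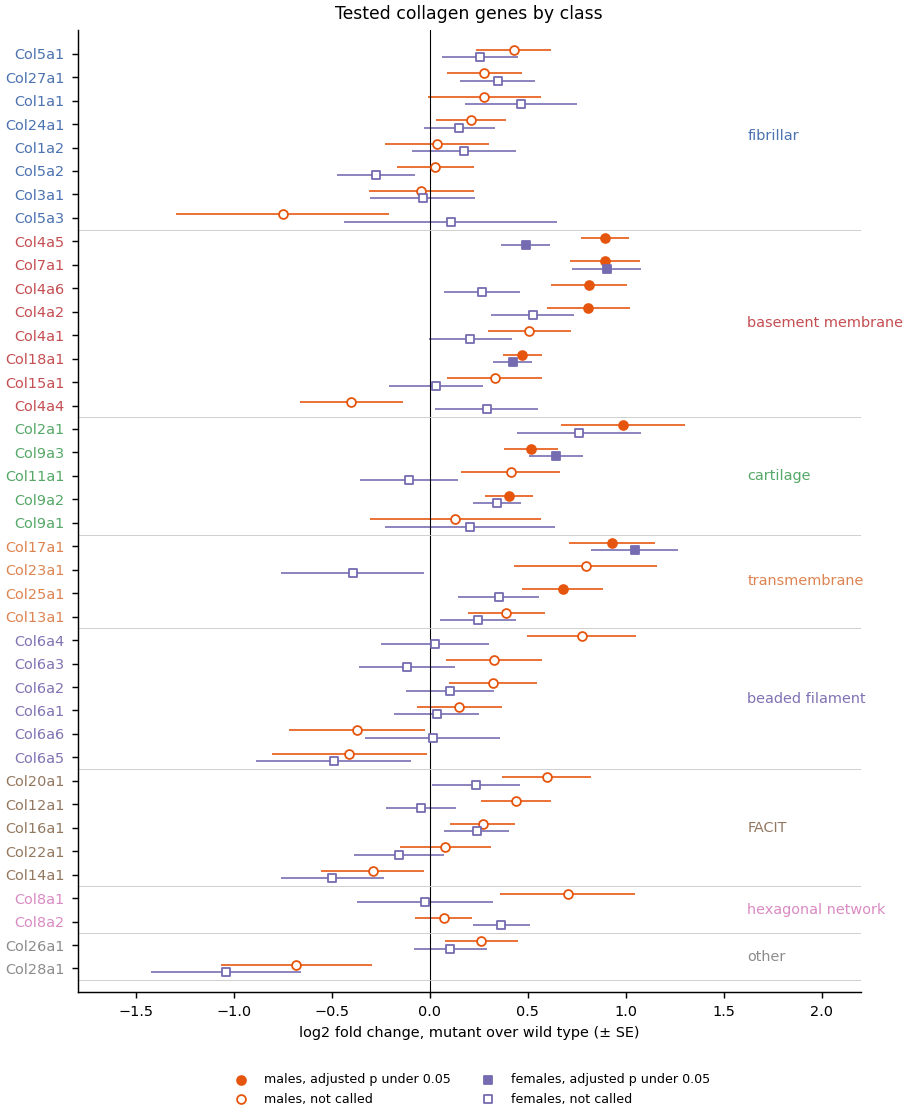
Log2 fold change of mutant over wild type (horizontal axis, ± SE) for the 40 tested collagens, in order of class, with circles for males and squares for females. Filled symbols have an adjusted p under 0.05. All filled symbols lie to the right of 0, in the basement membrane, cartilage and transmembrane classes.

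Among basement membrane collagens, 3 genes were called in both sexes: Col7a1, Col4a5 and Col18a1. Col7a1 (mm39, chr9:108782654-108813943) encodes type VII collagen, the anchoring fibril that ties the epithelial basement membrane to the stroma beneath. It stood at 3.16, 2.97 and 3.501 scaled FPKM in wild type females, 6.51, 4.86 and 8.31 in mutant females, 1.69, 1.54 and 2.44 in wild type males, and 4.01, 4.01 and 3.63 in mutant males. Every mutant library lay above every wild type library of its sex, and the mutant males lay just above the wild type females. The log2 fold change was 0.90 ± 0.18 (SE) in females, with an adjusted p of 0.00438, and 0.89 ± 0.18 in males (adjusted p = 0.00732).

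Col4a5 (mm39, chrX:140258381-140472230) encodes a type IV chain that assembles with the Col4a6 chain in smooth muscle and some epithelial basement membranes. Its values were 28.9, 27.1 and 30.7 scaled FPKM in wild type females, 34.9, 38.6 and 50.3 in mutant females, 40.0, 38.8 and 45.2 in wild type males and 78.4, 82.8 and 70.2 in mutant males. The mutants were higher in both sexes without overlap, and the mutant males stood above all other libraries. In males the log2 fold change was 0.89 ± 0.12 (SE; adjusted p = 0.00234), and in females it was 0.49 ± 0.12 (SE; adjusted p = 0.0140). The call in females was lost without wild type female 2. The test of the difference between the sexes gave 0.40 ± 0.17 (SE) with an unadjusted p of 0.0410 and an adjusted p of 0.550, so a larger effect in males was not called.

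Col18a1, whose product carries the endostatin fragment and lies in epithelial and vascular basement membranes, was 0.47 ± 0.10 (SE) higher in males (adjusted p = 0.00932) and 0.42 ± 0.10 higher in females (adjusted p = 0.0103) on the log2 scale. The 2 other called genes of this class passed in males and over both sexes but not in females. Col4a2, a chain of the type IV network found in nearly all basement membranes, had log2 fold changes of 0.81 in males (adjusted p = 0.0228) and 0.52 in females (adjusted p = 0.0868). Col4a6 had 0.81 in males (adjusted p = 0.0149) and 0.27 in females (adjusted p = 0.323). The male call of Col4a2 was lost without wild type male 1, wild type male 3, mutant male 1 or mutant male 3, and that of Col4a6 without wild type male 1 or mutant male 2. The rest of the class did not pass: Col4a1 had a log2 fold change of 0.36 ± 0.15 (SE) over both sexes (adjusted p = 0.0783), and Col15a1 and Col4a4 had 0.18 and -0.06.

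The X-linked pair gave a view of shared position. Col4a6 (mm39, chrX:139948399-140257072) and Col4a5 lay head to head with 1308 bases between them in the table's coordinates. Both genes were higher in mutant males than in any other group: Col4a6 stood at 39.9, 45.7 and 36.0 scaled FPKM there, against 22.1, 21.4 and 24.9 in wild type males, 14.7, 14.1 and 15.5 in wild type females and 11.99, 19.9 and 23.6 in mutant females. The ratio of Col4a5 to Col4a6 stayed between 1.81 and 1.99 in the wild type libraries and the mutant males, and was 2.91, 1.94 and 2.13 in the mutant females. Thus the pair kept nearly 1 proportion in every library except mutant female 1 and, less far, mutant female 3.

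Col4a1 and Col4a2 also share a start region, their annotated ends overlapping by 22 bases on chromosome 8, and their ratio lay apart between the genotypes. The ratio of Col4a1 to Col4a2 was 2.29 ± 0.068 (SD, n = 3) in wild type females, 2.52 ± 0.12 (SD, n = 3) in wild type males, 1.83 ± 0.075 (SD, n = 3) in mutant females and 2.05 ± 0.052 (SD, n = 3) in mutant males. All 6 wild type ratios (2.21 to 2.61) lay above all 6 mutant ratios (1.75 to 2.10), including mutant female 1 at 1.85. This ratio was singled out after its values were seen and was not tested, and the strand setting of the counting is not given in the sources used here. Other chain ratios lay apart in 1 sex. The ratio of Col6a1 to Col6a2 ran from 0.947 to 0.999 in mutant males, below its range of 1.05 to 1.14 in wild type males, and overlapped between the female groups. The ratio of Col1a1 to Col1a2, the chains of type I collagen, was 0.872 to 0.885 in wild type females and 1.02 to 1.17 in mutant females, and overlapped between the male groups. The ratio of Col9a1 to Col9a2 overlapped between genotypes in both sexes.

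The promoters of 4 called members, and of 2 abundant fibrillar genes that were not called, are given as RefSeq sequences of the build GRCm38.p6, which is not the build of the table. Each run is the 250 bases before the start of the gene, written 5′ to 3′ on the gene's own strand. Capitals mark 4 motifs searched on both strands: the CCAAT box CCAAT, the TATA box TATAAA, the GC box GGGCGG and the AP-1 site TGACTCA. A motif on the other strand appears as its reverse complement. They are shown to set the 3 most stable calls and the partner of Col4a5 beside the fibrillar genes. The windows lie at chrX:141475169-141475418 (plus strand) for Col4a5, chrX:141474077-141474326 (minus) for Col4a6, chr9:108953336-108953585 (plus) for Col7a1, chr19:47692043-47692292 (minus) for Col17a1, chr1:45311288-45311537 (plus) for Col3a1 and chr6:4505368-4505617 (plus) for Col1a2.
Col4a5: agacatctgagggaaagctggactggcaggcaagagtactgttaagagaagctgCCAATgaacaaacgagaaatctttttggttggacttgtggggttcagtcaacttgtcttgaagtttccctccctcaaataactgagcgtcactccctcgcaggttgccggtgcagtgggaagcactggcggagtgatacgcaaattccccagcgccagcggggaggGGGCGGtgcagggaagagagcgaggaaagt
Col4a6: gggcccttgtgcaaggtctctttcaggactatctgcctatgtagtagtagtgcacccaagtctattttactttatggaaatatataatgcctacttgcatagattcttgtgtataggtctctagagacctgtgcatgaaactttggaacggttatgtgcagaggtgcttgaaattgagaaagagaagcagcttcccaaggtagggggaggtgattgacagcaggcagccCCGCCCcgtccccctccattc
Col7a1: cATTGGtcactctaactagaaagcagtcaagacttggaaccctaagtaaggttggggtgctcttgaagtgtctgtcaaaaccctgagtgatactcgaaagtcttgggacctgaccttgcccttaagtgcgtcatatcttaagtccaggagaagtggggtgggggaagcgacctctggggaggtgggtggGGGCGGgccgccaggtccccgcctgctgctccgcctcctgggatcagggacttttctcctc
Col17a1: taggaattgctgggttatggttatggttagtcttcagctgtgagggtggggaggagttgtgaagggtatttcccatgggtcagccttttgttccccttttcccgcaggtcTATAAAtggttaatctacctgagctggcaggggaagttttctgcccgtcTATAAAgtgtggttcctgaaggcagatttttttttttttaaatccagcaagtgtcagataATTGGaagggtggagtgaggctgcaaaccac
Col3a1: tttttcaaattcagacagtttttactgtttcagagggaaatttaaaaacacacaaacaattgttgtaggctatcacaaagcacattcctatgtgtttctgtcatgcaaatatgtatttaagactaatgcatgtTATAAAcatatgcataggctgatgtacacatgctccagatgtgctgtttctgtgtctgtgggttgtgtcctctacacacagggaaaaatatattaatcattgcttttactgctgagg
Col1a2: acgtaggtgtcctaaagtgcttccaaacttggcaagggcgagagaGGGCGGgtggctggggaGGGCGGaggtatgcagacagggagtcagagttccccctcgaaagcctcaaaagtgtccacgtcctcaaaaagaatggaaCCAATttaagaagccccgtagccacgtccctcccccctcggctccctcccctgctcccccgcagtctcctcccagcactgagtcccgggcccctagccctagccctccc

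In these windows, GGGCGG was found once each for Col4a5, Col4a6 and Col7a1 and 2 times for Col1a2, and CCAAT once each for Col4a5, Col7a1, Col17a1 and Col1a2. TATAAA was found 2 times for Col17a1 and once for Col3a1, and TGACTCA in none of the 6. RefSeq windows, which run 50 bases past the start, were matched by symbol for 35 of the 44 members. These have 38 windows because some genes have several starts. Only the 250 bases before the start were searched for the shares that follow. GGGCGG occurred in 57.9% of the 38 collagen windows and in 32.7% of all 32851 windows. CCAAT occurred in 34.2% and 33.9%, TATAAA in 13.2% and 12.4%, and TGACTCA in 2.63% and 4.46%. The starts of Col4a5 and Col4a6 lay 1343 bases apart in RefSeq, so their windows did not overlap, while those of Col4a1 and Col4a2 lay 21 bases apart.

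Among transmembrane collagens, Col17a1 was called in both sexes and Col25a1 in males. Col17a1 (mm39, chr19:47634783-47680533), the type XVII chain of hemidesmosomes, stood at 6.22, 6.88 and 6.81 scaled FPKM in wild type females, 17.3, 10.4 and 15.9 in mutant females, 3.20, 5.51 and 5.37 in wild type males and 10.1, 10.5 and 7.31 in mutant males. Every mutant library, of either sex, lay above all 6 wild type libraries. The log2 fold change was 1.04 ± 0.22 (SE) in females, with an adjusted p of 0.00590, and 0.93 ± 0.22 in males (adjusted p = 0.0149), the largest of any collagen over both sexes at 0.99 ± 0.16 (adjusted p = 0.000626). The male call alone was lost without wild type male 1, mutant male 1 or mutant male 2.

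Col25a1 (mm39, chr3:129974540-130393526), a collagen of neurons that is needed for motor innervation of muscle, stood at 6.04, 6.05 and 7.59 scaled FPKM in wild type females and 5.73, 9.19 and 11.4 in mutant females. In males it stood at 6.51, 7.10 and 9.39 in wild type and 12.9, 12.9 and 11.5 in mutants. The male groups did not overlap, and the female groups did, through mutant female 1. The log2 fold change was 0.68 ± 0.21 (SE) in males (adjusted p = 0.0406) and 0.35 ± 0.21 in females (adjusted p = 0.226). The male call was lost without any 1 of wild type female 1, wild type female 2, wild type male 1, wild type male 2 or the 3 mutant males, and the call over both sexes, 0.51 ± 0.15 (adjusted p = 0.0164), kept its side of the threshold without each library in turn.

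Col23a1, outside the naming rule, was singled out because its value turned on 1 library. It stood between 22.8 and 24.4 scaled FPKM in all 6 wild type libraries, at 39.9, 45.4 and 39.5 in mutant males, and at 7.64, 24.3 and 31.1 in mutant females. With mutant female 1, the lowest of these, its log2 fold change in males was 0.79 ± 0.37 (SE; adjusted p = 0.148). Without that library it was 0.79 ± 0.088 in males (adjusted p = 0.000883) and 0.20 ± 0.099 in females (adjusted p = 0.155). The standard error in males fell because the spread is shared by all 4 groups. Col13a1, found at neuromuscular junctions and cell adhesions, had log2 fold changes of 0.39 in males and 0.25 in females, neither called.

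The cartilage class was present at low levels, except for Col9a2 and Col11a1, and 3 of its 5 tested genes were higher over both sexes. Col11a1 ranged from 4.84 to 13.8 scaled FPKM over all libraries. Col2a1 (mm39, chr15:97873483-97902576), the main fibril chain of cartilage, stood at 0.439, 0.388 and 0.564 scaled FPKM in wild type females and 1.39, 0.749 and 1.34 in mutant females. In males it stood at 0.470, 1.54 and 1.39 in wild type and 1.91, 2.08 and 4.16 in mutants. The groups did not overlap in either sex, and the highest value was that of mutant male 3. Among wild type libraries only males 2 and 3 exceeded 1 scaled FPKM, so Col2a1 passed the filter of 3 libraries through the mutants. The log2 fold change was 0.99 ± 0.32 (SE) in males (adjusted p = 0.0488) and 0.76 ± 0.32 in females (adjusted p = 0.0934), and over both sexes 0.87 ± 0.22 (adjusted p = 0.00960). The male call was lost without any 1 of the 3 wild type females, wild type male 1, wild type male 3 or the 3 mutant males.

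Col9a3 (mm39, chr2:180239583-180263982), a chain of the type IX collagen that coats cartilage fibrils, stood at 2.75, 2.77 and 2.87 scaled FPKM in wild type females, 6.03, 4.22 and 3.92 in mutant females, 4.57, 5.52 and 5.02 in wild type males and 8.23, 6.79 and 7.24 in mutant males. The mutants of each sex lay above the wild type of that sex without overlap, and wild type males overlapped mutant females. The log2 fold change was 0.64 ± 0.14 (SE) in females, with an adjusted p of 0.00660, and 0.52 ± 0.14 in males (adjusted p = 0.0246), the latter lost without wild type male 1, wild type male 3 or mutant male 1. Col9a2, another type IX chain, had 0.40 in males (adjusted p = 0.0397) and 0.34 in females, with group means of 21.4 to 30.3 scaled FPKM. Its male call was lost without any 1 of the 6 wild type libraries, mutant male 1 or mutant male 3. The other chain, Col9a1, and the fibril chain Col11a1 had 0.17 and 0.15 over both sexes and were not called.

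Markers of cartilage cells were set beside these genes. Of the 11 listed, 6 passed the filter and 1, Sox9, was called higher in mutants over both sexes (log2 fold change 0.67, adjusted p = 0.000679). That share, 16.7%, was near the 18.9% of all tested genes called higher, and the median of the 6 was 0.04. Sox9, a regulator of cartilage genes that is also active in epithelia, had group means of 1.94 and 3.13 scaled FPKM in wild type females and males and 3.23 and 5.43 in mutant females and males. Matn1, Ucma, Snorc and Matn3, defining genes of cartilage matrix, never exceeded 0.199 scaled FPKM. The summed level of the list was 6.99 to 13.8 in wild type and 7.74 to 17.6 in mutants. Acan, the aggregating proteoglycan of cartilage, stood at 1.36 in wild type male 2, 1.73 in mutant female 1 and 2.55 in mutant male 3 and at or below 0.343 in the other 9, the same 3 libraries in which Col10a1 was highest. Without these 3 libraries, an alternative chosen after seeing the data, Col2a1 had a log2 fold change of 0.89 in males (adjusted p = 0.0842) and 0.78 over both sexes (adjusted p = 0.0217), and Col9a3 and Col9a2 passed in both sexes. The number of collagens called over both sexes was then 23, with 14 for males and 21 for females, all of them higher in mutants, beside 20.1%, 8.64% and 12.2% of all tested genes called higher in that fit. Mutant female 1 is among these 3 libraries. Leaving it out alone gave 25, 19 and 18, beside 46%, 28.5% and 28.9% of all tested genes called in either direction.

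Of the 8 fibrillar genes, none was called in any mutant comparison, and their log2 fold changes over both sexes ran from -0.32 (Col5a3) to 0.37 (Col1a1). For Col3a1 the value was -0.04 ± 0.19 (SE), for Col1a2 0.10 ± 0.19 and for Col1a1 0.37 ± 0.20 (adjusted p = 0.166). The sign of the Col1a2 value changed under 6 of 23 alternatives, reaching -0.15 after correction for GC content and length, and that of Col3a1 under 3, reaching 0.15 without mutant female 1. The standard errors of these genes allow changes of the size seen in the basement membrane class in single sexes, so their values are not shown to be equal. Without mutant male 2, 4 members outside the earlier calls passed over both sexes (Col1a1, Col27a1, Col5a1 and Col8a2), of which the first 3 are fibrillar. In all, 14 collagens (35%) were then called, each higher in mutants. Of all tested genes 35.2% were called in that fit, 15.9% higher and 19.4% lower.

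Type VI, FACIT and hexagonal network genes had no call in the mutant comparisons either. Type VI log2 fold changes over both sexes ran from -0.45 (Col6a5) to 0.40 (Col6a4), FACIT ones from -0.40 (Col14a1, the fibril-associated type XIV chain of dense connective tissue) to 0.42 (Col20a1), and Col8a1 and Col8a2, chains of short-chain network collagen, had 0.34 and 0.22. Col28a1 (mm39, chr6:7997808-8192617), a collagen described in peripheral nerve, was the member called lower. It stood at 1.49, 2.40 and 1.66 scaled FPKM in wild type females, 0.779, 1.55 and 0.0449 in mutant females, 2.29, 2.81 and 1.90 in wild type males and 1.57, 0.910 and 1.33 in mutant males. The male groups did not overlap and the female groups did. Over both sexes the log2 fold change was -0.86 ± 0.27 (SE; adjusted p = 0.0259), and the call was lost without wild type female 2, wild type male 2 or mutant male 2. Without mutant female 3 the value was -0.60 (adjusted p = 0.0186). Beside it, Elavl4, an RNA-binding protein of neurons, was lower by a log2 fold change of -0.89 over both sexes (adjusted p = 0.0109). The neural genes Tubb3 (-1.02) and Sox10 (0.16) were not called. It ranged from 3.73 to 7.66 scaled FPKM in wild type libraries, and stood at 2.26, 3.79 and 0.751 in mutant females and at 3.30 to 4.15 in mutant males. Elavl4 and Tubb3 were lowest in mutant female 3, the library with the lowest Col28a1, and the part of neural cells in the result was not tested.

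**Figure D3:**
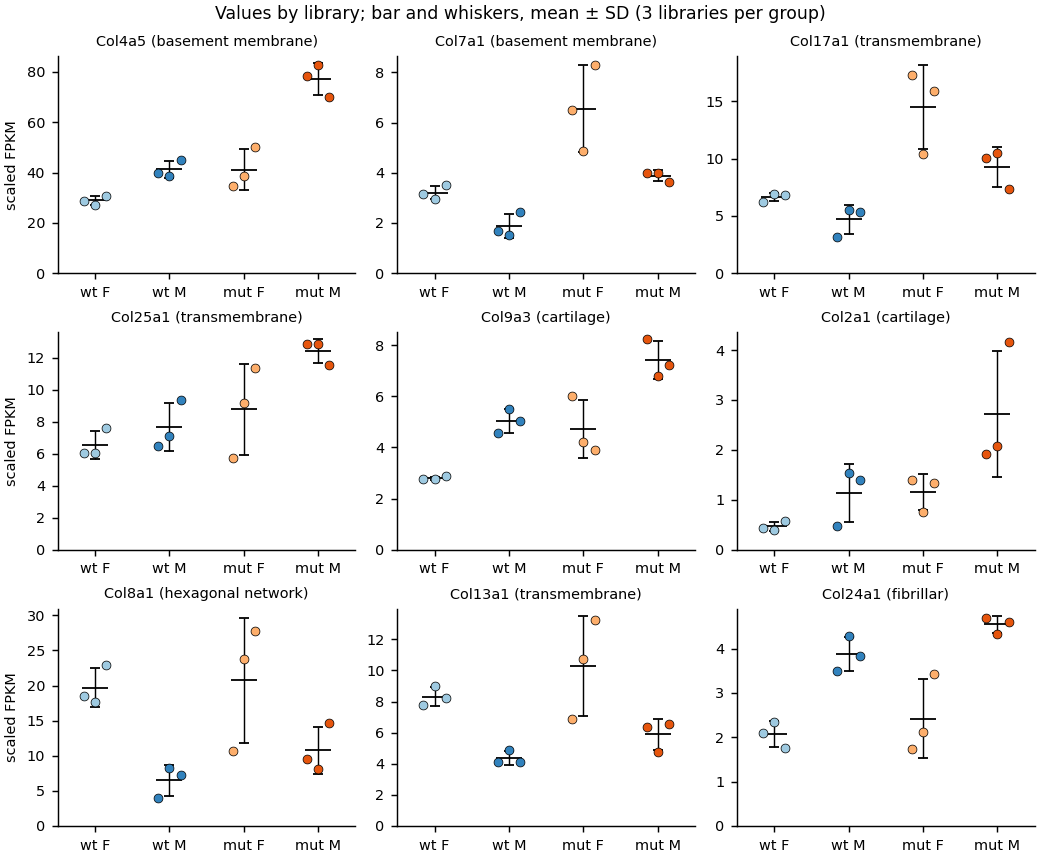
Scaled FPKM (vertical axis, from 0, with its own scale in each panel) of 9 collagens in each library of the wild type (wt) and mutant (mut) females (F) and males (M), with the mean ± SD of 3 libraries as bar and whiskers. For Col7a1, Col4a5, Col9a3, Col17a1 and Col2a1 the mutants of each sex lie above the wild type of that sex. The wild type sexes lie apart for Col8a1, Col13a1 and Col24a1, and also for Col7a1, Col4a5, Col9a3 and Col17a1.

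Mutant female 1 carried low levels of most collagens. Against the mean of the other 2 mutant females, its median difference over the 40 tested members was -0.77 on the log2 scale, beside 0.03 over all tested genes. It was more than 0.5 lower for 24 of the 40 members, and for 9.09% of all tested genes. Both type I chains and Col3a1 were among these (Col1a1 -0.77, Col1a2 -0.95, Col3a1 -1.12), as were Col4a1 (-0.96) and Col4a2 (-0.98), and the greatest differences were those of Col9a1 (-1.87) and Col23a1 (-1.78). Col9a3 (0.52), Col5a3 (0.47), Col17a1 (0.41) and Col7a1 (0.03) were not lower in it. In the same library the fibroblast markers summed to 381 scaled FPKM against 792 and 721 in the other mutant females, endothelial markers to 52.6 against 98.4 and 90.2, and basal epithelial markers to 924 against 478 and 671. The part of these cell types in the difference was not tested.

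Leaving out mutant female 1 was chosen after its low collagen values were seen. Higher mutant values of most collagens follow from that choice, so the counts below are no separate evidence. Without mutant female 1, 24 collagens were higher and 1 was lower in mutants over both sexes. That is, 60% of members were higher, beside 22.3% of all tested genes in the same fit. These were 6 of 8 basement membrane, 5 of 5 cartilage, 4 of 4 transmembrane, 3 of 6 beaded filament, 3 of 5 FACIT and 1 of 8 fibrillar genes, with Col8a1 and Col26a1 higher and Col28a1 lower. All 11 members called with the library remained called without it. Col4a2 then had log2 fold changes of 0.81 in males and 0.85 in females (adjusted p = 0.000883 and 0.000735), and Col4a6 had 0.81 and 0.54 (adjusted p = 0.00116 and 0.00583).

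**Figure D4:**
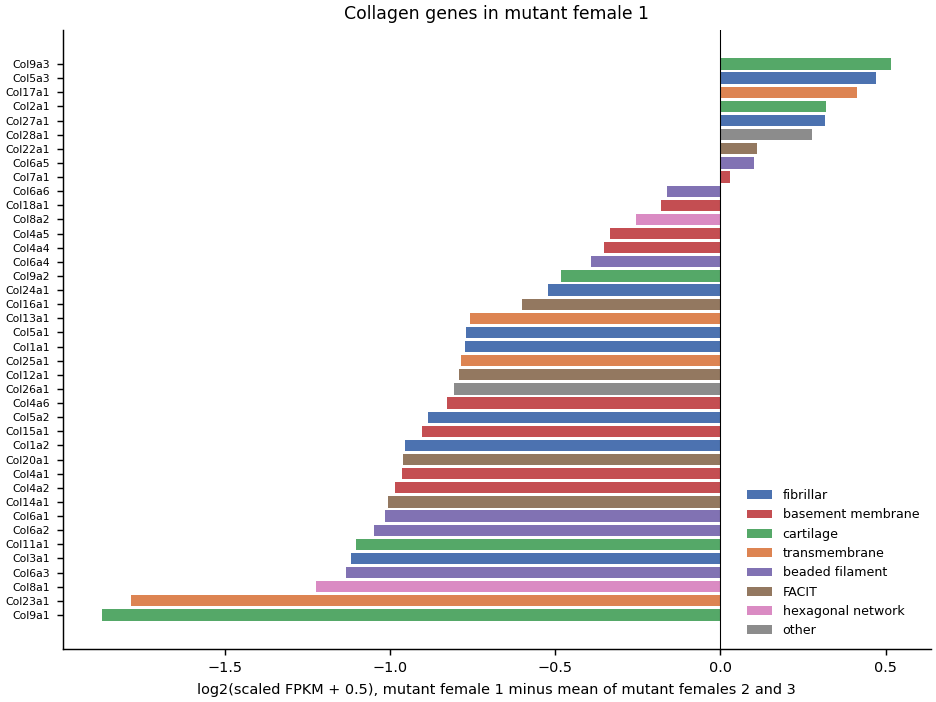
Difference on the log2(scaled FPKM + 0.5) scale between mutant female 1 and the mean of mutant females 2 and 3 (horizontal axis) for the 40 tested collagens, coloured by class. Bars run from -1.87 (Col9a1) to 0.52 (Col9a3), with 31 of 40 below 0.

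The difference between mutant and wild type libraries varied with base composition across all genes. Depth and genotype cannot be told apart here, and the cause of this trend was not tested. Most collagen transcripts had more GC than the median gene. Over the tested genes, the median log2 fold change over both sexes rose from -0.35 to 0.25 between the lowest and the highest of 5 equal bins of GC content. Tested collagens had a median GC content of 55.4% and a median transcript length of 6024.5 bases, against 49.9% and 3367 bases for all tested genes, and 32 of the 40 lay above the median GC content of all tested genes. When GC content and length were fitted in each library and removed, 4 collagens stayed higher over both sexes: Col17a1 (0.69, adjusted p = 0.0125), Col25a1 (0.58, adjusted p = 0.0147), Col4a5 (0.53, adjusted p = 0.00143) and Col7a1 (0.45, adjusted p = 0.0314). Col28a1 stayed lower at -0.90 (adjusted p = 0.0428). The other 6 lost the call: Col18a1 (0.07), Col4a2 (0.28), Col2a1 (0.48), Col9a3 (0.29), Col9a2 (0.01) and Col4a6 (0.31). In males 1 member, Col4a5 (0.70, adjusted p = 0.0101), was then called, and in females 0 were called, against 3.76% and 7.81% of all genes. In that female fit, Col17a1 had 0.76 with an adjusted p of 0.0587.

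Males and females were compared within each genotype to ask which collagens differ between the sexes, whose samples also differ in the organs they hold. In wild type, 2 collagens were higher in males and 2 in females, which is 10% of the 40 against a background of 3.18% of all tested genes (1.95% higher in males and 1.23% higher in females). Groups did not overlap for 21 members (31.8% of all tested genes). In mutants, 6 were higher in males and 2 in females, 20% against a background of 7.49% (3.98% higher in males and 3.52% higher in females), and groups did not overlap for 15 (24.7% of all tested genes).

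Col8a1 (mm39, chr16:57444621-57575100), a network collagen of vessels and other tissues, stood at 18.49, 17.7 and 22.9 scaled FPKM in wild type females and 4.02, 8.21 and 7.204 in wild type males. In mutants it stood at 10.7, 23.8 and 27.7 in females and 9.47, 8.17 and 14.6 in males. The wild type sexes lay far apart, and the mutant sexes overlapped. The log2 difference of males from females was -1.58 ± 0.35 (SE) in wild type (adjusted p = 0.0328) and -0.85 ± 0.35 in mutants (adjusted p = 0.157). The wild type call was lost without any 1 of the 3 wild type females, wild type male 1, wild type male 2 or mutant male 1.

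Col13a1 (mm39, chr10:61674015-61814887) stood at 7.76, 8.97 and 8.21 scaled FPKM in wild type females and 4.08, 4.87 and 4.09 in wild type males, and at 6.85, 10.8 and 13.2 in mutant females and 6.34, 4.76 and 6.54 in mutant males. Females lay above males in both genotypes without overlap, by -0.86 ± 0.20 (SE) for males relative to females in wild type (adjusted p = 0.0387) and -0.72 ± 0.20 in mutants (adjusted p = 0.0484). The wild type call was lost without any 1 of the 6 wild type libraries, mutant male 1 or mutant male 3, and the mutant call without any 1 of the 11 libraries other than mutant female 1. The opposite held for Col24a1 (mm39, chr3:144998233-145257766), a minor fibrillar collagen. It stood at 2.09, 2.35 and 1.77 in wild type females, 3.51, 4.28 and 3.84 in wild type males, 1.73, 2.11 and 3.43 in mutant females and 4.70, 4.34 and 4.61 in mutant males. Its difference was 0.77 ± 0.18 (SE) in wild type (adjusted p = 0.0449) and 0.83 ± 0.18 in mutants (adjusted p = 0.0213). The wild type call was lost without any 1 of the 6 wild type libraries or the 3 mutant males, and the mutant call without any 1 of the 3 mutant males. The cartilage gene Col9a3 was also higher in males, by 0.75 in wild type (adjusted p = 0.0146) and 0.62 in mutants (adjusted p = 0.0244). Its wild type call was lost without wild type female 1, wild type female 2 or wild type male 2, and its mutant call without mutant female 3, mutant male 1 or mutant male 3.

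In mutants, Col4a6 (1.16, adjusted p = 0.00611) and Col4a5 (0.91, adjusted p = 0.00181) were the clearest male-higher collagens and kept their calls without each library in turn. In wild type the same differences were 0.61 and 0.51 and were not called. Col6a5 (1.49), a type VI chain, and the junctional collagen Col22a1 (0.87) were also higher in mutant males, and Col7a1 (-0.66) in mutant females. In wild type the same differences were 1.41, 0.63 and -0.65 and were not called (adjusted p = 0.0862, 0.182 and 0.0810). These 3 mutant calls rested on single libraries. That of Col6a5 was lost without any 1 of 9 libraries (those other than wild type female 2, mutant female 2 and mutant male 2). That of Col22a1 was lost without any 1 of 9 (those other than wild type males 1 and 2 and mutant male 2), and that of Col7a1 without any 1 of 10 (those other than wild type male 3 and mutant female 2). Single libraries moved these counts, as they did the share of all tested genes called (3.18% in wild type and 7.49% in mutants with all libraries). In wild type, leaving out wild type female 1 or wild type male 2 gave 0 calls, beside 1.16% and 1.19% of all tested genes. Leaving out wild type female 2, wild type female 3, wild type male 1 or mutant male 1 gave 1, beside 1.31% to 2.32%. Leaving out mutant male 3 gave 2, beside 2.81%, and leaving out mutant female 1 gave 7, beside 7.15%. In mutants, 2 remained without mutant male 1 or mutant male 3, beside 3.73% and 3.12% of all tested genes. Without wild type female 1 or wild type female 3, 4 remained, beside 5.05% and 5.56%. A further 5 libraries gave 5 when left out, beside 3.58% to 6.59%: wild type female 2, wild type males 1 and 2, mutant female 3 and mutant male 2.

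The mutant effect itself was not called as different between the sexes for any collagen. limma called 0 of 40 members and 0 of all 13904 genes for this difference (background 0%), and 2 members had an unadjusted p under 0.05. These were Col4a5 and Col23a1 (1.19 ± 0.52, SE; unadjusted p = 0.0419, adjusted p = 0.553).

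Genes that process, bind or break down collagen were set beside the family as fixed lists. Of 32 tested genes of biosynthesis and processing, 2 were higher and 2 lower over both sexes. These were the prolyl hydroxylase subunit P4ha3 (0.38), P3h4 (0.19), a partner of lysyl hydroxylation, the lysyl hydroxylase Plod2 (-0.45) and the peptidyl-prolyl isomerase Fkbp14 (-0.59). The list's median was 0.11. Of 7 tested receptors, Ddr1, a collagen-binding kinase of epithelia, was higher (0.44), and the integrin subunits Itgb1 (-0.49) and Itga2 (-0.42) were lower. Of 6 tested genes of breakdown, the proteases Fap (-0.42) and Adam9 (-0.26) were lower and none was higher. The share called over these lists was 12.5%, 42.9% and 33.3%, beside the 40.6% of all tested genes.

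Other components of the basement membrane formed a further list. Of 20 tested genes of this list, 7 (35%) were higher and 0 lower over both sexes, with a median of 0.24, beside 18.9% of all tested genes higher and 21.6% lower. The largest changes were in the laminin chains Lamc3 (0.80), Lama5 (0.78) and Lamb3 (0.64) and the proteoglycan Agrn (0.59). Lama5 ranged from 5.92 to 9.62 scaled FPKM in wild type and from 9.69 to 14.8 in mutants, without overlap.

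Basal epithelial cells are a known source of type VII and type XVII collagen. Of their 6 markers, 5 were higher over both sexes and 0 lower, with a median of 0.70, beside 18.9% of all tested genes higher and 21.6% lower over both sexes. The largest changes were in the keratins Krt5 (1.54), Krt14 (0.76) and Krt15 (0.63) and the hemidesmosome integrin Itgb4 (0.99). Krt5 ranged from 17.4 to 43.7 scaled FPKM in wild type libraries and from 52.2 to 141 in mutants. The summed level of the list was 295 to 460 in wild type and 451 to 924 in mutants, and its part in the higher Col7a1 and Col17a1 values was not tested. Fibroblast markers had 2 of 7 lower over both sexes (28.6%, beside 21.6% of all tested genes), Lum (-1.03) and Dcn (-0.70), with a median of 0.04. In males 0 were called, with a median of 0.31, and in females 2 were lower, with a median of -0.26. The sums of these markers were 825 to 1102 in wild type and 381 to 846 in mutants, or 721 to 846 without mutant female 1. Skeletal muscle markers had 6 of 7 lower over both sexes, led by Ckm (-1.25), Tnni2 (-0.82), Myh8 (-0.75) and Tnnt3 (-0.74), and 6 lower in males and 0 in females, beside 11.6% and 15.9% of all tested genes lower. Smooth muscle and urothelial markers had 0 called in the 3 mutant comparisons, as did the 2 of 6 bone markers that passed the filter, with a summed level of the bone list of 16.9 to 29.6 in wild type and 15.7 to 35.9 in mutants. Of 5 endothelial markers, 0 were called over both sexes or in males and 1, Emcn, was lower in females (-0.60). Of the 7 markers of the lower urogenital tract, Foxa1 was higher over both sexes (0.43) and Hoxd13 lower. The cells these lists mark were not set against single collagens, and their part in the collagen values was not tested.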

How the data were processed

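Expression was measured by RNA sequencing in 12 libraries of embryonic urogenital sinus. The deposited values are FPKM per gene, made by the authors with cutadapt 4.1, STAR 2.7.10a and Cufflinks 2.2.1, per the submitters' processing notes, which name the builds mm39 and mm10 with no role. Against GENCODE M21 of GRCm38, 2.74% of shared genes had the same end, so positions are given as mm39, with starts 1 above those of the table. FPKM hold no counts, so only relative depth was recovered, from the spacing of low values, and no counting interval was computed. RNA per library was made strand-specific, and the strand setting and annotation of the counting are not given in the sources used here.

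Scaling used the median ratio of each library to a geometric-mean reference over 11897 genes that reached 1 FPKM in every library. The 13904 genes reaching 1 FPKM in 3 or more libraries were fitted as log2(scaled FPKM + 0.5) in limma 3.58.1 (R 4.3.3), with 4 group means, a trended prior variance and two-sided tests. A gene is called at a Benjamini-Hochberg adjusted p under 0.05 over all 13904 genes, and fold changes on this scale understate low genes. GC content and transcript length were corrected with splines of 5 degrees of freedom in each library, on 13735 genes with an annotation.

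The members, classes and lists were chosen with earlier results of these data known. Values in every library are given for the 2 called members with the largest change in each class, the 3 largest called differences between the wild type sexes and the 4 most abundant members. From each other list the 4 largest called changes are named. The counts and sums of the neural marker list are not reported here.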

Additional observations from a re-analysis of the deposited data

How the results depend on the processing

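No called value of a collagen changed sign under any alternative. Of the 29 members not called over both sexes, 18 changed sign under at least 1 alternative, among them Col1a2, Col3a1, Col9a1 and Col11a1. Of the called values of single collagens under alternatives, 614 stayed on their side of the threshold and 249 fell short of it. The number of collagens called in males was 10, beside 20.3% of all tested genes called. The alternatives gave 5 without a filter and 2 on FPKM as deposited, beside 5.87% and 9.71% of all tested genes. Scaling to library sums gave 6 and GC and length correction 1, beside 17.5% and 3.76%. Leaving out 1 library gave 3 to 19, beside 8.96% to 28.5%. In females (5, beside 28%) the alternatives gave 2 as deposited and 3 with library sums, beside 12% and 31.3% of all tested genes. They gave 0 after GC and length correction and 21 without the libraries holding Acan, beside 7.81% and 28.6%. With 1 library left out, 4 to 18 were called in females, beside 17.6% to 29.7%. Over both sexes (11, beside 40.6%) they gave 7 as deposited and 5 after that correction, beside 24.6% and 18.2%. Without the Acan libraries 23 were called, beside 42.2%, and with 1 library left out 10 to 25, beside 33.8% to 46%. Between the sexes in wild type (4, beside 3.18%) they gave 1 without a filter, beside 1.06%. With 1 library left out, 0 to 7 were called there, beside 1.16% to 7.15%. In mutants (8, beside 7.49%) they gave 2 without a filter and 4 with a filter of 5 FPKM, beside 2.02% and 7.71%. They gave 4 as deposited and 5 after GC and length correction, beside 2.88% and 5.67%. Without the Acan libraries 13 were called, beside 4.21%, and with 1 library left out 2 to 10, beside 3.12% to 9.88%. The cause was not tested, except that left-out libraries reduce the samples. Leaving out the libraries holding Rn7sk leaves 1 mutant male, so no count is given for that fit. The 0 calls for a mutant effect that differs by sex stayed 0 under every alternative.

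FPKM as deposited moved the median of all genes over both sexes to -0.11 and library sums to -0.15. Of all genes over both sexes, 2631 were higher and 3008 lower as reported, 552 and 2872 as deposited, and 824 and 4617 with library sums. Among collagens the split went from 10 higher and 1 lower to 6 and 1, and to 7 and 2. Between the sexes in mutants, library sums gave 11 higher in males and 0 lower, in place of 6 and 2. Of all tested genes, 12.2% were then higher and 1.65% lower, in place of 3.98% and 3.52%.

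Replicate numbers are shared between groups, but the labels do not say that a number marks a shared litter or day. Among 18 pairs of same-numbered libraries, the correlation of deviations ran from -0.23 to 0.32 with a median of 0.01, and 3 were over 0.1. With a replicate block the numbers called were 10 in males, 5 in females, 11 over both sexes, 2 between the sexes in wild type and 5 in mutants. The shares of all tested genes called were 20.5%, 28.3%, 41.5%, 2.63% and 6.93% in that order. With the replicate block and GC and length correction together the numbers called were 1, 0, 5, 5 and 5. The shares of all tested genes were then 3.08%, 7.03%, 17.7%, 3.17% and 5.32%.

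Precision is limited by 3 libraries a group and by the lower relative depth of all mutant libraries, which cannot be told apart from genotype. The deposited FPKM give no counts, so the counting error of low members such as Col28a1, Col2a1 and Col6a5 was not estimated.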
